A study of Mus musculus with 8 samples.

Results

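The insulin-like growth factor (IGF) system is represented here by 10 mouse genes, namely the ligand *Igf1*, its receptor *Igf1r*, the adaptor *Irs1* and the 7 binding protein genes *Igfbp1* to *Igfbp7*. They were chosen by name out of 21938 protein-coding genes of the GENCODE M21 annotation (build GRCm38, also called mm10), and all 10 were found. Peaks were counted at a gene where they overlapped its body or lay within 2000 bp of any of its annotated transcription start sites, and the latter are called promoter peaks.

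PBRM1 (BAF180) and BRG1, a subunit and the ATPase of the chromatin remodeler SWI/SNF, were mapped by ChIC-Seq, in which an antibody guides a micrococcal nuclease fusion protein to its antigen in fixed cells and the released DNA is sequenced. All libraries came from primary uterine stromal cells of WT mice aged 8 to 12 weeks on D4, with 3 replicates per antibody and with 5 to 10 mice pooled per preparation according to the labels. The labels give 50000 cells and 5 min of fixation per library and name the animals both pregnant and pseudopregnant. The 2 IgG libraries were not analysed here, so no peak was set against a nonspecific antibody, and there was no group without PBRM1. The labels do not say that the replicates came from separate preparations, so a p-value measures only the spread between these libraries, which may be technical. Each library held 8868777 to 16505239 fragments and 21912 to 40610 peaks, with 36656 or more peaks in every BRG1 library and 26363 or fewer in every PBRM1 library. Each peak carries a fold enrichment, its pileup of fragments over the local background of its own library. Of the promoters of all protein-coding genes, 67.7% had a peak in both lists called on pooled fragments and 51.9% in all 6 libraries. Of the promoters of 10 stromal markers, 10 had a peak in both pooled lists and 6 in all 6 libraries. The promoters of 8 epithelial markers gave 8 and 1, those of 4 endothelial markers 3 and 1, those of 4 smooth muscle markers 3 and 1, and those of 4 leukocyte markers 0 and 0.

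IGF1 is a secreted growth factor that binds the receptor tyrosine kinase IGF1R, and IRS1 couples the activated receptor to phosphatidylinositol kinase and MAP kinase signalling. The binding proteins IGFBP1 to IGFBP6 bind IGFs with high affinity and set how much ligand reaches the receptor, whereas IGFBP7 binds them weakly. In the uterus, IGF1 is a known stromal signal to the epithelium downstream of estrogen, and several binding proteins change in the stroma as it decidualizes.

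In the pooled lists, promoter peaks of both PBRM1 and BRG1 were present at 9 of the 10 genes, beside 67.7% of all protein-coding genes. A promoter peak was in all 6 libraries at 5 of the 10, beside 51.9%. Sites with both antibodies, and sites found in every library, were about as frequent as over the genome. The pooled lists held 40 PBRM1 and 64 BRG1 peaks at the 10 genes, which merged into 69 sites. A peak of both antibodies lay at 33 sites, only a PBRM1 peak at 6 and only a BRG1 peak at 30. The share of sites with both was 45.3% over the 93339 merged sites of the genome, which include sites far from genes. A peak was present in all 6 libraries at 10 of the 69 sites, beside 14% of the merged sites of the genome. No replicate list held a peak at 22 of the 69, beside 38.9% of the genome. Of the 69 sites, 23 were promoter sites, 44 lay in introns and 2 overlapped exons outside the promoters.

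The 10 sites found in all 6 libraries comprised 6 promoter sites, 2 of them at *Igfbp4* and 1 each at *Igf1r*, *Igfbp3*, *Igfbp6* and *Igfbp7*. The other 4 lay in introns of *Igf1r*, *Irs1*, *Igfbp5* and *Igfbp7*. The sequences around the summits of these 4 intronic sites are shown because they are the positions outside promoters where both antibodies had a peak in every replicate. Each spans 201 bases centred on the pooled BRG1 summit and is written on the forward strand of GRCm38, with matches to the searched motifs in capitals.

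*Igf1r* intron 2, chr7:68129293-68129493: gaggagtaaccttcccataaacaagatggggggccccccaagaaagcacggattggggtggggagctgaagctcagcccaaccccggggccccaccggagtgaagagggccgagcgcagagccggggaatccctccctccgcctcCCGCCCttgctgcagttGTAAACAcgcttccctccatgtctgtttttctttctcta
*Irs1* intron 1, chr1:82283214-82283414: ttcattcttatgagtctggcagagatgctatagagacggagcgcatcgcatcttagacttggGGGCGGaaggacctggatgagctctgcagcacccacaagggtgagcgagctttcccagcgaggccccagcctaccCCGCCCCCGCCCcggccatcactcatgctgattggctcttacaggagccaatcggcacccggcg
*Igfbp5* intron 1, chr1:72871774-72871974: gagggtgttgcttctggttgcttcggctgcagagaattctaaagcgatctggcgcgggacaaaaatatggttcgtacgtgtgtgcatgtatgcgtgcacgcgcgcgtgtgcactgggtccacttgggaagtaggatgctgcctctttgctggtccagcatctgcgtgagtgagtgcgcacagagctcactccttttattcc
*Igfbp7* intron 1, chr5:77358479-77358679: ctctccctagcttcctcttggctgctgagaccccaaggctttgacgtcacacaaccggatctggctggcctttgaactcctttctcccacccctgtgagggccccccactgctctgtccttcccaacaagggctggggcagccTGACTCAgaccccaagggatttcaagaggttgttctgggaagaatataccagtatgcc

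Motifs were searched on both strands, and overlapping matches were each counted. They were the AP-1 motif, spelled TGANTCA, and the GC box, which is the string GGGCGG. Also searched were the TATA motif with the letters TATAAA, the forkhead motif, which is the string TGTTTAC, and the palindromic steroid response element. The *Igf1r* window held 1 GC box and 1 forkhead match, both on the reverse strand, the *Irs1* window 3 GC boxes and the *Igfbp7* window 1 AP-1 match. No match was found in the *Igfbp5* window. Over all 69 sites, in windows of the same length, 12 held a GC box, 5 an AP-1 match, 4 a forkhead match, 3 a TATA match and 0 the palindrome. The shares in the windows of all pooled BRG1 peaks were 20.6%, 8.43%, 2.59%, 5.75% and 0.479%, respectively. At promoters, 3 of the 23 sites of the system held a GC box, whereas 44.1% of all pooled BRG1 and 42.4% of all pooled PBRM1 promoter peaks did. A match describes the sequence only.

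Promoter peaks were found at most of these genes, and their fold enrichments were low beside those of other genes. A weak peak in all cells and a strong one in few cells cannot be told apart in these lists. A pooled PBRM1 promoter peak was found at 9 of 10 genes, beside 68.6% of all protein-coding genes, and a pooled BRG1 promoter peak at 10 of 10, beside 72.1%. Both were present at 9 of 10, beside 67.7%. Among these 9, the pooled PBRM1 promoter peak of *Igfbp5* ranked above only 0.775% of the peaks in its list. With replicates, the count fell to 6 of 10 genes in all 3 PBRM1 libraries (52.2% of all), 7 of 10 in all 3 BRG1 libraries (61.4% of all) and 5 of 10 in all 6 (51.9% of all), namely *Igf1r*, *Igfbp3*, *Igfbp4*, *Igfbp6* and *Igfbp7*. Per library, 7, 7 and 7 of the 10 genes had a PBRM1 promoter peak and 9, 10 and 7 a BRG1 promoter peak, beside 60.0%, 60.7% and 55.3% of all protein-coding genes for PBRM1 and 66.1%, 65.1% and 65.0% for BRG1. The median fold enrichment of the strongest promoter peak was 4.60 over the 9 genes with a pooled PBRM1 promoter peak, beside 6.90 over all 15060 such protein-coding genes. For BRG1, it was 5.19 over the 10 genes, beside 8.74 over 15818. In neither pooled list did a gene of the system reach the median of all genes, and in the replicate lists only *Igfbp7* did, in PBRM1 replicate 2 and BRG1 replicate 2.

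**Figure D1:**
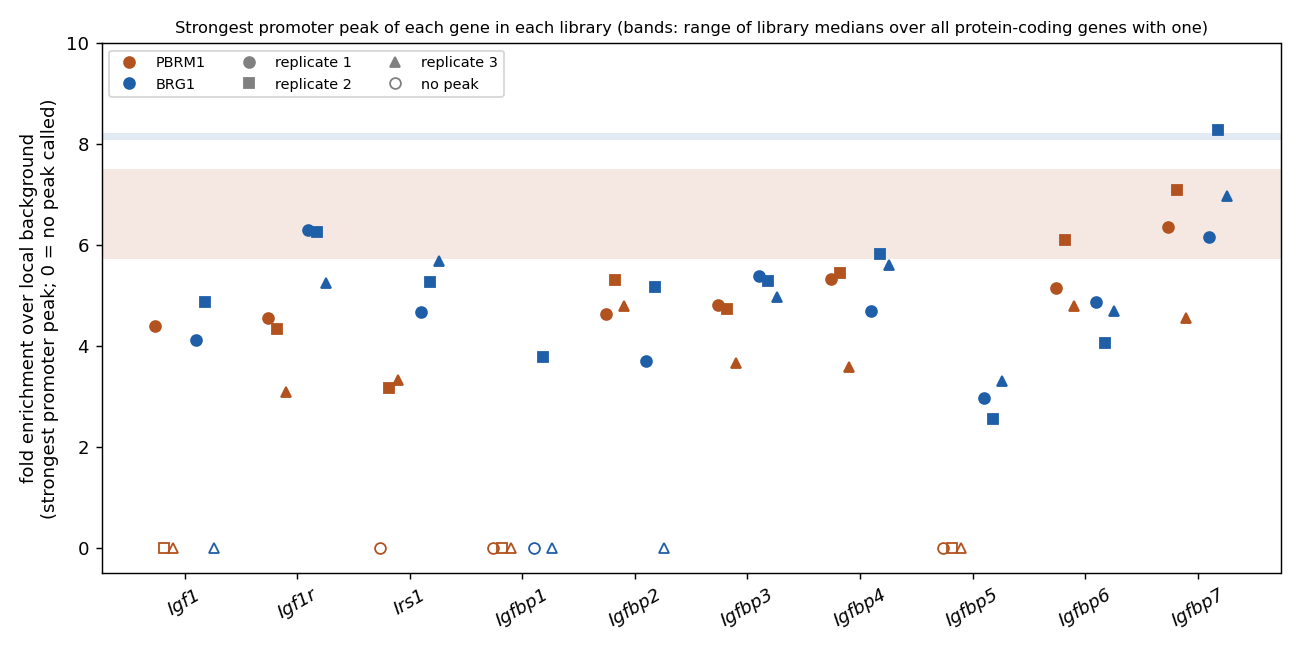
Fold enrichment over the local background (vertical axis) of the strongest promoter peak of each gene (horizontal axis) in each of the 6 libraries, with open symbols at 0 where no peak was called; the shaded bands span the 3 library medians over all protein-coding genes with a promoter peak (PBRM1 5.73 to 7.52, BRG1 8.08 to 8.22). *Igfbp7* was highest in 4 of the 6 libraries and *Igfbp1* and *Igfbp5* had no PBRM1 symbol above 0.

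*Igf1*, the ligand gene (ENSMUSG00000020053.18, chr10:87858265-87937042, forward strand), had little replicated signal. Its only site with both antibodies lay 1964 bp downstream of the 5′ end of the gene (distances are those of the pooled summit with the smaller q-value), in intron 1 of the longest transcript and within 2000 bp of 1 or more of its 8 annotated start sites. It also overlaps the antisense gene *Igf1os*, and these lists cannot assign it to one of the 2 genes. The fold enrichment there was 4.41 in PBRM1 replicate 1 and no peak was called in replicates 2 and 3, whereas BRG1 gave 4.11 and 4.87 in replicates 1 and 2 and no peak in replicate 3. The promoter was thus found in 3 of 6 libraries. The other 5 sites of *Igf1* were intronic and BRG1 only, and 4 of them were in no replicate list. The fifth, in intron 3 at 69.0 kb, had 5.42 and 3.97 in BRG1 replicates 1 and 2. The pooled intergenic peaks whose nearest start site was that of *Igf1* numbered 7 for PBRM1 (5 upstream of the gene and 2 beyond it) and 9 for BRG1 (8 upstream and 1 beyond). Among them, a site 117.7 kb upstream had a pooled BRG1 fold enrichment of 7.50 and a pooled PBRM1 fold enrichment of 4.78, with a peak in all 3 replicates of each antibody. A site 45.8 kb upstream was in all 3 BRG1 replicates, with a pooled fold enrichment of 6.27. PBRM1 had a peak there in 2 replicates, with a pooled fold enrichment of 3.78. The sites found in all 3 replicates of an antibody in the *Igf1* region thus lay outside the gene, and their assignment to *Igf1* rests on distance alone.

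*Igf1r*, the receptor gene (ENSMUSG00000005533.10, chr7:67952827-68233668, forward strand), held 31 of the 69 sites. It is the longest gene of the system at 280.8 kb, and the pooled lists held 16 PBRM1 and 27 BRG1 peaks at it. Among the 644 protein-coding genes of 200 to 400 kb, the median was 5 PBRM1 peaks and 9 BRG1 peaks, and 90.5% and 93.5% of them had fewer than *Igf1r*. The promoter carried 3 clustered sites, with summits 1614 and 921 bp upstream and 319 bp downstream of the 5′ end. The upstream pair had BRG1 peaks in all 3 replicates but PBRM1 peaks in 1 and 2 replicates, and the downstream site had both antibodies in all 6 libraries. There, the PBRM1 fold enrichments were 4.56, 2.50 and 3.09 and the BRG1 fold enrichments 3.56, 4.97 and 4.70. Thus 1 of the 3 clustered sites had a peak in every library. Its PBRM1 peak in replicate 2 ranked above only 1.06% of peaks in that list, and that in replicate 3 above 18.1%. The other 2 promoter sites, at internal start sites 196.0 and 255.4 kb into the gene, had BRG1 peaks only, in 1 and 0 replicates.

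By pooled fold enrichment and by the mean of each antibody, the strongest site of the system was not at a promoter but in intron 2 of *Igf1r*, 176.5 kb from the 5′ end. It gave 12.3, 11.3 and 7.50 for PBRM1 (mean 10.4 ± 2.56, SD, n = 3) and 8.81, 8.06 and 9.44 for BRG1 (mean 8.77 ± 0.692, SD, n = 3). The pooled PBRM1 peak, with 11.7, ranked above 98.7% of all peaks in its list and the pooled BRG1 peak, with 9.73, above 94.6%, and the summits were 23 bp apart. In every library this peak was above those of the 3 clustered promoter sites of the same gene, but in BRG1 replicate 2 its 8.06 was below the *Igfbp7* promoter (8.29) and the *Irs1* intron site (8.37). Other intronic sites differed between the antibodies. At 102.2 kb and 118.0 kb, BRG1 peaks were called in 3 of 3 replicates and PBRM1 peaks in none, with BRG1 fold enrichments of 3.77, 4.08 and 5.31 and of 4.84, 6.30 and 6.98. At 132.6 kb, BRG1 gave 6.50, 4.61 and 8.02, and PBRM1 had a peak of 4.98 in the pooled list only. At 165.6 kb the order turned, with PBRM1 at 5.30, 3.58 and 4.46 and a BRG1 peak of 4.05 in the pooled list only.

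**Figure D2:**
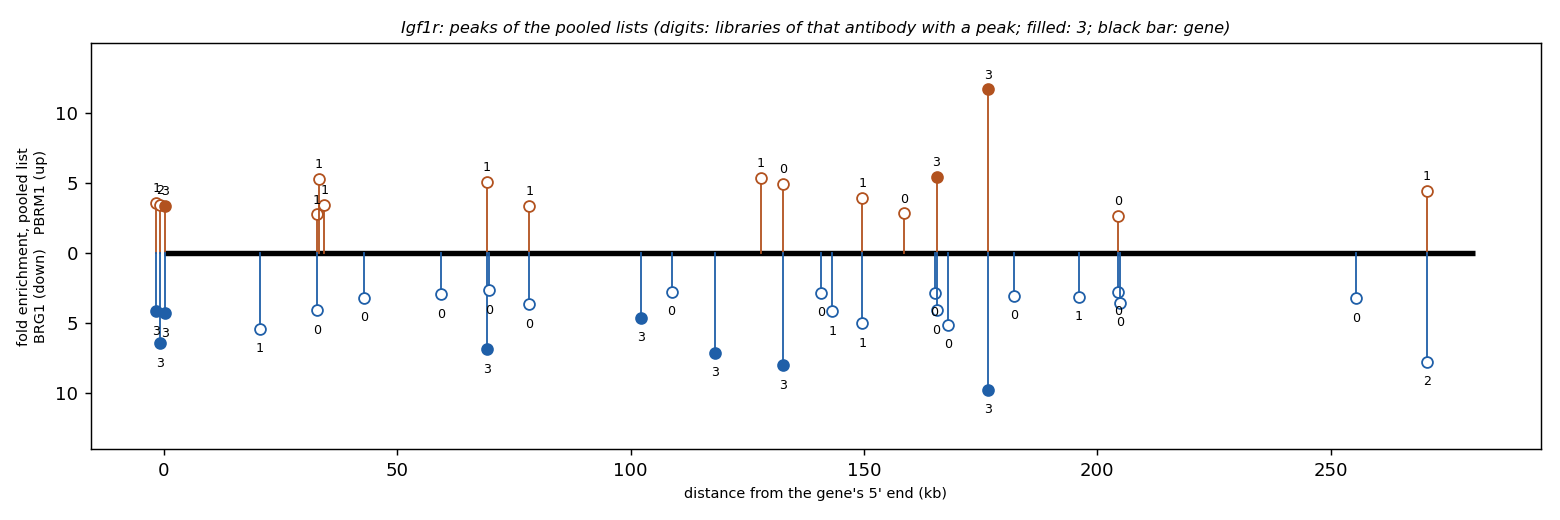
Sites of the pooled lists along *Igf1r* by distance of the summit from the 5′ end of the gene (kb), with fold enrichment upward for PBRM1 and downward for BRG1, the number of replicates of that antibody with a peak at each symbol, filled symbols for 3 replicates and the gene as a black bar. The site at 176.5 kb was the highest for both antibodies (11.7 and 9.73).

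*Irs1*, which encodes the adaptor of the receptor (ENSMUSG00000055980.2, chr1:82233101-82291416, reverse strand), was marked more strongly in its intron than at its promoter. The promoter site, with its summit 87 bp upstream of the start, gave no PBRM1 peak in replicate 1, fold enrichments of 3.16 and 3.33 in PBRM1 replicates 2 and 3, and 4.68, 5.27 and 5.68 for BRG1. The site 8.1 kb into intron 1 gave 5.21, 6.36 and 5.21 for PBRM1 (mean 5.59 ± 0.665, SD, n = 3) and 5.88, 8.37 and 8.17 for BRG1 (mean 7.47 ± 1.39, SD, n = 3). In each of the 5 libraries with a promoter peak, the intronic value was the higher one. A further site, 55.5 kb from the start, overlapped an exon and the annotated gene *Gm9747*, and had 1 PBRM1 replicate (5.53) and no BRG1 replicate.

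The binding protein genes fell apart by how often their promoters were found. *Igfbp7* (ENSMUSG00000036256.13, chr5:77349240-77408041, reverse strand) had the highest promoter fold enrichment of the system in both pooled lists. Its pooled BRG1 summit lay 5 bp and its pooled PBRM1 summit 110 bp from the 5′ end. By q-value rank in the pooled BRG1 list, the *Igf1r* promoter stood higher (above 91.7% of peaks, against 87.8% for *Igfbp7*). In the pooled PBRM1 list, *Igfbp6* (85.5%) and *Igfbp4* (82.6%) ranked above *Igfbp7* (81.3%). The *Igfbp7* promoter gave 6.36, 7.10 and 4.55 for PBRM1 (mean 6.00 ± 1.31, SD, n = 3) and 6.16, 8.29 and 6.97 for BRG1 (mean 7.14 ± 1.08, SD, n = 3). Farther in, the intron 1 site at 49.5 kb gave 5.48, 3.96 and 4.22 for PBRM1 and 5.06, 4.96 and 4.94 for BRG1. A site at 28.1 kb was in 5 libraries, with BRG1 at 4.26, 6.18 and 7.14 and PBRM1 at 4.15 and 5.47. No other gene of the binding proteins had as many sites, 7 in all.

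*Igfbp3*, the gene of the main IGF carrier of serum (ENSMUSG00000020427.11, chr11:7206086-7213923, reverse strand), had 1 site, a promoter site found in all 6 libraries. Its fold enrichments were 4.81, 4.73 and 3.67 for PBRM1 and 5.40, 5.28 and 4.97 for BRG1. *Igfbp4* (ENSMUSG00000017493.12, chr11:99041244-99054392, forward strand) had 4 promoter sites, 2 of them in all 6 libraries. The site 149 bp upstream of the 5′ end gave 5.32, 5.45 and 3.58 for PBRM1 and 4.71, 5.82 and 5.60 for BRG1. The other, 6.7 kb inside the gene near an internal start site, gave 4.09, 4.39 and 3.56 for PBRM1 and 4.69, 4.66 and 3.59 for BRG1. *Igfbp4* also lay closest to an intergenic site 14.6 kb from its 5′ end that each of the 6 libraries held, where the pooled fold enrichment was 5.26 for PBRM1 and 6.58 for BRG1.

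*Igfbp6*, whose product prefers IGF2 (ENSMUSG00000023046.6, chr15:102144362-102149511, forward strand), had a promoter site 274 bp downstream of the 5′ end in all 6 libraries. PBRM1 gave 5.15, 6.09 and 4.79 there and BRG1 4.87, 4.04 and 4.70. At a second promoter site, 1070 bp downstream, PBRM1 peaks of 4.34, 4.71 and 3.86 were called in the 3 replicates and BRG1 peaks in none, with 2.41 in the pooled BRG1 list. *Igfbp2* (ENSMUSG00000039323.18, chr1:72824503-72852474, forward strand) was found in 5 libraries, with 4.64, 5.32 and 4.80 for PBRM1, 3.70 and 5.16 for BRG1 replicates 1 and 2, and no promoter peak in BRG1 replicate 3. Its pooled PBRM1 value of 6.15 was just below that of *Igfbp7*, 6.24, and replicate ranges of both genes overlapped.

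*Igfbp5* and *Igfbp1* had no PBRM1 promoter peak in any replicate. *Igfbp5*, which encodes the most conserved IGF binding protein (ENSMUSG00000026185.8, chr1:72857932-72874884, reverse strand), had BRG1 promoter peaks of 2.97, 2.56 and 3.31, the lowest of any gene with 3 BRG1 replicates. Those of replicates 1 and 3 were at a site 896 bp inside the gene, and that of replicate 2 was at a site 42 bp upstream of the 5′ end. No single promoter site of *Igfbp5* was thus in all 3 BRG1 replicates. In the pooled PBRM1 list, the 896 bp site held a peak that ranked above 0.775% of peaks. An intronic site at 4.5 kb had PBRM1 peaks of 2.97 in the pooled list and 3.26 in replicate 2. The site of *Igfbp5* with PBRM1 peaks in all 3 replicates lay 3.0 kb into the gene, in intron 1. PBRM1 gave 6.66, 6.85 and 4.98 there (mean 6.16 ± 1.03, SD, n = 3). BRG1 gave 3.49, 3.89 and 3.36 at the same site (mean 3.58 ± 0.274, SD, n = 3), and the pooled summits were 1 bp apart. Within their own lists, the pooled PBRM1 peak ranked above 91.8% of peaks and the pooled BRG1 peak above 75.8%. At 3.6 kb, a neighbouring site had BRG1 peaks of 3.17, 5.16 and 4.04 and no PBRM1 peak in any list. An intergenic site 11.0 kb upstream of *Igfbp5* was in all 3 PBRM1 replicates, with a pooled fold enrichment of 6.92. BRG1 had a peak there in 2 replicates, with a pooled fold enrichment of 5.13.

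*Igfbp1*, a gene best known as a decidual and hepatic product (ENSMUSG00000020429.7, chr11:7197782-7202546, forward strand), had a peak in 1 replicate list, with 3.79 in BRG1 replicate 2, and in the pooled BRG1 list, with 4.47. It was the only gene of the 10 with no PBRM1 peak in any list. *Igfbp1* and *Igfbp3* lie tail to tail with 3539 bp between them, and *Igfbp2* and *Igfbp5* likewise with 5457 bp between them. Each of these gaps held 1 pooled PBRM1 peak, and no peak in the pooled BRG1 list or in any replicate list. Thus both neighbouring pairs combined a gene found in 5 or 6 libraries with one that had no PBRM1 promoter peak in any replicate.

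**Figure D3:**
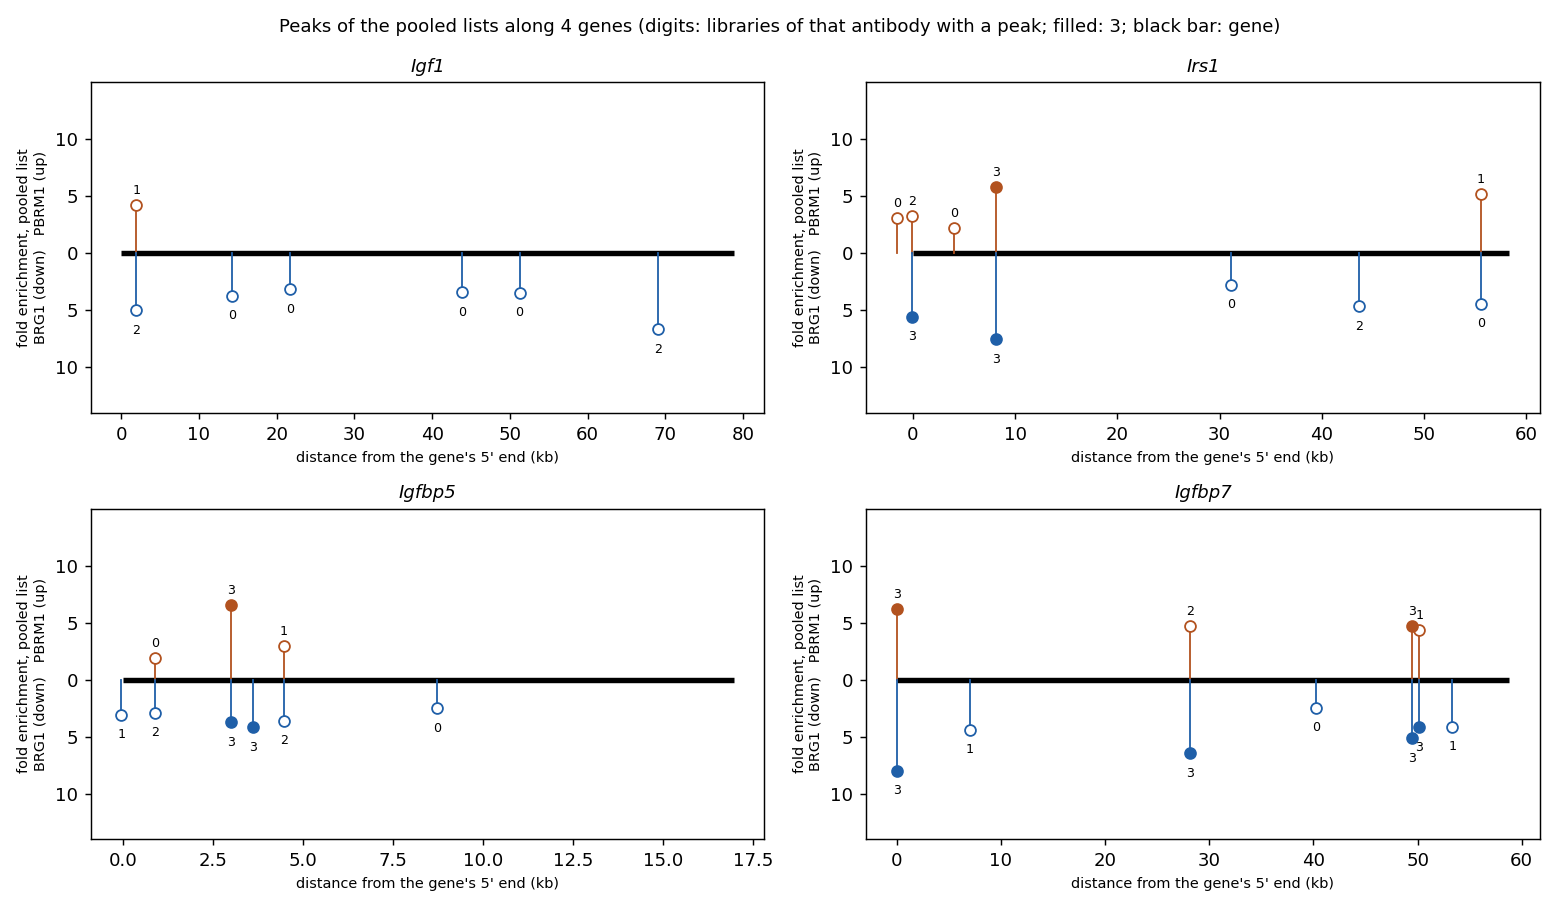
Sites of the pooled lists along *Igf1*, *Irs1*, *Igfbp5* and *Igfbp7* by distance of the summit from the 5′ end (kb), with fold enrichment upward for PBRM1 and downward for BRG1, the number of replicates of that antibody with a peak at each symbol, filled symbols for 3 replicates and the gene as a black bar. *Irs1*, *Igfbp5* and *Igfbp7* each have an intronic site filled for both antibodies, at 8.1, 3.0 and 49.5 kb, and *Igf1* has none.

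Whether a gene of the system drew more peaks with one antibody than with the other was tested on the number of peaks per library, since the fold enrichments of separate lists are not on one scale. *Igf1r* had 6, 10 and 6 peaks in the PBRM1 libraries and 11, 12 and 11 in the BRG1 libraries. *Igfbp5* had 1, 2 and 1 against 4, 3 and 4, and *Igfbp7* had 3, 3 and 3 against 6, 4 and 4. In these 3 of 10 genes every BRG1 library was above every PBRM1 library, which was so for 7.25% of all protein-coding genes. The reverse order was found in 0 of 10 without scaling, beside 0.105%. Both shares cover genes of any length and any number of peaks, also those without a peak, so they are not matched to these genes. The pooled BRG1 list held fewer peaks at 99.6% of protein-coding genes than at *Igf1r*, at 88.5% than at *Igfbp5* and at 90.9% than at *Igfbp7*. The differences in means, PBRM1 minus BRG1, were −4.00 peaks at *Igf1r*, −2.33 at *Igfbp5* and −1.67 at *Igfbp7*, each with p = 0.1 in a two-sided exact permutation test, the smallest p that 3 against 3 libraries can give. The other 7 genes had overlapping libraries and p of 0.4 to 1 in the same exact test.

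Every BRG1 library held more peaks in total than every PBRM1 library, and the differences at the genes depended on how that was scaled. Without scaling, BRG1 was higher at 6 genes, PBRM1 at 1 and 3 were equal, and per 10000 peaks BRG1 was higher at 4 and PBRM1 at 6. Per 10000 peaks of the library, the difference turned to 0.0782 at *Igf1r* (p = 0.9) and 0.0600 at *Igfbp7* (p = 0.8) and stayed negative at *Igfbp5*, −0.406 (p = 0.1), by the same exact permutation test. On this scale PBRM1 was above BRG1 at *Igfbp4*, by 0.432, and at *Igfbp6*, by 0.413, each with the smallest exact p of 0.1. With only the 20000 strongest peaks of each list, it was −2.67 at *Igf1r* (p = 0.1), −0.333 at *Igfbp5* (p = 1) and 0 at *Igfbp7* (p = 1), again by the exact test, and PBRM1 was above BRG1 at *Igfbp2* by 1.00 (exact p = 0.1). All 10 genes together held 8.27, 9.48 and 8.67 of every 10000 PBRM1 peaks and 8.37, 8.46 and 7.71 of every 10000 BRG1 peaks, and these ranges overlapped.

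Replicate calls at single sites also differed between the antibodies. BRG1 peaks in all 3 replicates and PBRM1 peaks in none were found at 4 of the 69 sites, the 3 in *Igf1r* and 1 in *Igfbp5* named above, beside 2.22% of the merged sites of the genome. PBRM1 peaks in all 3 replicates and BRG1 peaks in none were found at 2 of 69, in *Igf1r* at 165.6 kb and in *Igfbp6* at 1070 bp, beside 0.0321% of the genome, or 30 sites. At both of the latter the pooled BRG1 list did have a peak, of 4.05 and 2.41. The *Igf1r* site at 132.6 kb, among the former, had a pooled PBRM1 peak of 4.98. Some of these calls were weak. The PBRM1 replicate 2 peak at 165.6 kb ranked above 4.08% of its list and the BRG1 replicate 1 peak at 102.2 kb above 7.34%.

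**Figure D4:**
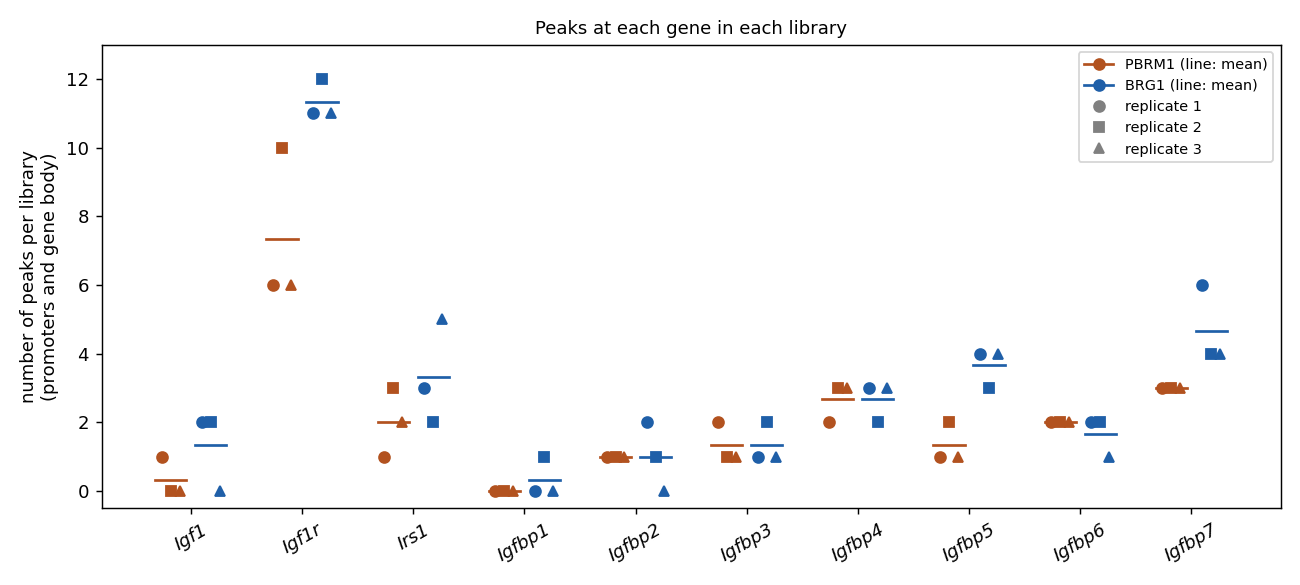
Number of peaks at each gene (promoters and gene body, vertical axis) in each of the 3 PBRM1 and 3 BRG1 libraries, with the mean of each antibody as a line. The libraries of the antibodies do not overlap at *Igf1r* (6 to 10 against 11 to 12), *Igfbp5* (1 to 2 against 3 to 4) and *Igfbp7* (3 against 4 to 6).

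The promoters differed in CpG content in a way the choice of genes did not use. Promoter windows of 300 bases (250 before and 50 after the RefSeq start, GRCm38.p6) were matched for all 10 genes, 11 windows in all with 2 for *Igfbp2*. A peak over that window was found in 3 PBRM1 and 3 BRG1 libraries at *Igfbp7* and in none at *Igfbp1*. The 240 bases upstream of the RefSeq starts of these 2 genes are shown for that contrast, 5′ to 3′ on the strand of the gene, with GC boxes in capitals.

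*Igfbp7* promoter, reverse strand, chr5:77408056-77408295: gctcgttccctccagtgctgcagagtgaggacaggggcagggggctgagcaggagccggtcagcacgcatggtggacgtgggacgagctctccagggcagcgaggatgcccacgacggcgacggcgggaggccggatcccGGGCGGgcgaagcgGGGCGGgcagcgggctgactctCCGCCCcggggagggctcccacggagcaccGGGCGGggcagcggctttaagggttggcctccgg
*Igfbp1* promoter, forward strand, chr11:7197537-7197776: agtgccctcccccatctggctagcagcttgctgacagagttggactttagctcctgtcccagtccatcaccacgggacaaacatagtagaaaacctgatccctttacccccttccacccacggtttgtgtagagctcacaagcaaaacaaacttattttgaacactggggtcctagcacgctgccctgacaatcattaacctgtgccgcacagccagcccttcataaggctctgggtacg

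The *Igfbp7* stretch contained 25 CG dinucleotides, 4 GC boxes and 74.2% G and C, and the *Igfbp1* stretch contained 5, 0 and 52.5%. Over the 300 bases, the observed to expected CpG ratio was 0.832 at *Igfbp7* and 0.383 at *Igfbp1*. The ratio was below 0.6 at 3 genes, *Igf1* (0.307), *Igfbp1* (0.383) and *Igfbp5* (0.420), whose windows had a peak in 0, 0 and 1 of the 6 libraries. The windows of *Igf1r* (1.11), *Igfbp3* (0.961), *Igfbp7* (0.832), *Irs1* (0.827) and *Igfbp4* (0.724) had a peak in 4, 5, 6, 3 and 6 libraries. Both *Igfbp2* windows (0.645 and 0.647) had 1 and 2, and that of *Igfbp6* (0.614) had 0, since its promoter sites lay outside these 300 bases. The RefSeq set held 20150 promoters of protein-coding genes. A pooled PBRM1 peak covered 90.6% of those with a ratio of 0.6 or more and 28.5% of the others. For a pooled BRG1 peak these shares were 94.4% and 32.7%, and for a peak in all 6 libraries 70.8% and 12.5%. The 3 genes with few CpGs were also those found in the fewest libraries over their full promoter regions, 3, 1 and 3 of 6.

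**Figure D5:**
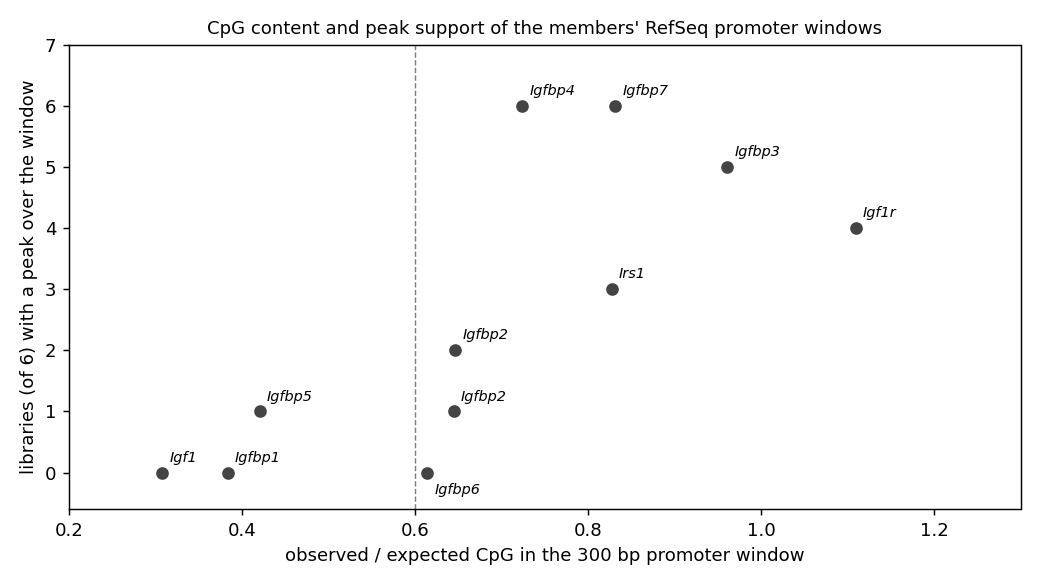
Observed to expected CpG ratio of the 11 RefSeq promoter windows of the 10 genes (horizontal axis, dashed line at 0.6) against the number of the 6 libraries with a peak over the window (vertical axis). The 3 windows left of the line have 0 or 1 library, and those right of it have 0 to 6.

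Of 40 other genes of the pathway (further ligands, receptors, proteases, adaptors and kinases, and their targets), 38 had a pooled promoter peak of PBRM1, 38 of BRG1 and 38 of both, and 27 had a promoter peak in all 6 libraries. The shares over all protein-coding genes were 68.6%, 72.1%, 67.7% and 51.9%, respectively. A promoter peak in all 3 libraries of an antibody was found at 28 of the 40 for PBRM1 (52.2% of all) and at 33 for BRG1 (61.4% of all). By pooled PBRM1 fold enrichment at the promoter, the highest of the 40 were intracellular transducers. These were *Pdpk1* with 10.2, the kinase that activates AKT, *Grb2* with 9.20, an adaptor to RAS, and *Tsc2* with 8.79, an inhibitor of mTOR signalling. Each was above the 6.24 of *Igfbp7*. No promoter peak was found in either pooled list at *Ins1*, a gene of insulin, and at *Pappa2*, a protease that cleaves binding proteins. More peaks in every BRG1 than in every PBRM1 library were found at 5 of the 40 (7.25% of all), and the reverse at 1 (0.105% of all).

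The genes with promoter values most like those of *Igfbp7* across the 6 libraries, out of 11375 compared, were *Kdm5a*, *Cdk2ap2* and *Ppm1e*. Their Euclidean distances from *Igfbp7* in log2 fold enrichment were 0.185, 0.203 and 0.204. PBRM1 fold enrichments at *Kdm5a* were 6.43, 7.44 and 5.00 and BRG1 fold enrichments 6.50, 8.14 and 7.28.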

How the data were processed

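ChIC-Seq peak lists of PBRM1 and BRG1 (3 replicates each) were analysed. According to the methods and the file headers, the authors trimmed the reads, mapped the pairs with Bowtie2 (mm10), removed low-quality alignments and duplicates, and called peaks with MACS 2.2.7.1 per replicate and on pooled fragments, without a control file, at a q-value of 0.05 over a background of up to 10000 bp. The 8 deposited lists give a pileup signal, a −log10 p-value and q-value and a fold enrichment ratio per peak, all computed by the authors with MACS. The pooled lists rest on more fragments than any replicate.

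From these lists, peaks were intersected with GENCODE M21 (minimum overlap 1 bp, promoters within 2000 bp of a start site) in Python 3.11.15 with numpy 2.4.6, pandas 2.3.3 and scipy 1.17.1, and plotted with matplotlib 3.10.9. Overlapping pooled peaks were merged into sites. Groups were taken from the sample titles. The number of peaks per library was compared with a two-sided exact permutation test, unadjusted over the 10 genes. Sequences came from the GRCm38.p6 genome and RefSeq promoters. All 10 genes were named, and of the pathway list those without a pooled promoter peak and the 3 strongest for PBRM1. For the gene with the strongest PBRM1 promoter found in all 6 libraries, the 3 genes nearest in promoter values were named. The genes were set by name, with no threshold on measured values, but the genes, lists and tests were chosen with earlier results of these data known. Alternatives were stricter cutoffs of q or enrichment, other promoter distances, overlaps and start sites, the 20000 strongest peaks, peaks per 10000, a replicate block and each replicate left out. Counting and testing steps were tested on simulated intervals.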

Additional observations from a re-analysis of the deposited data

How the results depend on the processing

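For the 7 genes whose peak numbers differed between the antibodies, 94 of 105 alternatives kept the sign, 9 fell to 0 and 2 reversed, both per 10000 peaks, at *Igf1r* (0.0782) and *Igfbp7* (0.0600). The replicate block, counted among these alternatives, alters only the permutation and so could not change a sign. The 3 genes with a difference of 0 went to either side, with PBRM1 higher in 15 and BRG1 higher in 11 of 45 alternatives. The count of genes with a pooled promoter peak of both antibodies, 9, was 8 at a −log10 q of 5 or more. At a fold enrichment of 4 or more, and among the 20000 strongest peaks, it was 6. It fell to 4 to 5 when a replicate was left out and each remaining one had to hold the peak. When all 3 were required, an alternative added after the data were seen, it fell to 4. The pooled PBRM1 peaks, 40, fell to 12 to 14 and 12 under the same rules, to 22 at a fold enrichment of 4 or more and to 25 among the 20000 strongest peaks. The pooled BRG1 peaks, 64, fell to 20 to 24, 20, 36 and 19, and to 42 at a −log10 q of 5 or more. The falls under replicate rules come from the demand for support itself, since the reads were not called again. Genes with a promoter peak in all 6 libraries, 5, became 1 at the stricter q and 2 at a fold enrichment of 4, and 5 to 6 without a replicate. Genes with more peaks in every BRG1 library, 3, became 1 at the stricter q, 1 at a fold enrichment of 4, 1 among the 20000 strongest, and 3 to 4 without a replicate. Leaving a replicate out could only keep or raise this count and that of genes with a promoter peak in all libraries. For the changes under stricter cutoffs the cause was not tested. No shares of all protein-coding genes under the same cutoffs stand beside these counts, so they cannot show whether the changes are particular to these genes. Replicate numbers were not treated as pairs in the main test. In a check of these numbers over 13093 peaks, same-numbered libraries correlated at −0.040, −0.011 and −0.011, and differently numbered ones at −0.017 to 0.029. Such values cannot decide whether the libraries were prepared as pairs. With the replicate block, the count of 3 and the differences are the same by construction. The p at *Igf1r*, *Igfbp5* and *Igfbp7* was then 0.25 by exact permutation, the smallest that 3 pairs allow. Of the 69 sites, 22 were called in pooled lists only, and the part of depth in this was not tested.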
